A study of Mus musculus with 16 samples.

Results

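Solute carriers are membrane proteins that move ions, sugars, amino acids, nucleosides, metals and drugs across cell membranes, and 126 of them were measured at appreciable levels in RNA from isolated mouse glomeruli. They were taken by name and level from a table of 25791 gene symbols. A gene was included when its symbol had the form Slc, number, letter, number, and when it reached 5 FPKM (fragments scaled to transcript length and library size) in at least 7 of the 16 libraries. Of 337 symbols of this form, 44 were set aside by name (Slc40a1, Slc11a2 and the mitochondrial carriers of family 25), and 126 of the other 293 reached the level. Levels below are FPKM as deposited. The carriers were chosen by these levels, which are therefore given as a description.

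All 16 libraries carry the genotype eNOS-/-//db/db: endothelial nitric oxide synthase is missing and both copies of the leptin receptor gene have the db mutation, a cross in which diabetes damages the kidney. Glomeruli from 1 kidney were taken after iron perfusion with a magnet. In 9 libraries no drug had been given (untreated). In the other 7 (RAAS-blocked) the renin-angiotensin-aldosterone system was blocked with lisinopril at 20 mg/day, an inhibitor of angiotensin-converting enzyme, and losartan at 30 mg/day, which blocks an angiotensin II receptor, in drinking water from 10 to 12 weeks until 26 weeks of age. The labels do not say in words that each library is a separate mouse, so the p-values below measure the spread between libraries. Both groups carry the same alleles and ate a standard diet, and mice without diabetes were not analysed here.

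Along the nephron each segment expresses its own set of carriers. The proximal tubule takes up most filtered glucose, phosphate, amino acids and organic acids through carriers of its brush border and passes them to the blood through carriers of its basolateral side. The thick ascending limb and the distal convoluted tubule reabsorb sodium chloride through cation-chloride cotransporters, and the intercalated cells of the collecting duct exchange chloride for bicarbonate. Slc34a1, the sodium-phosphate cotransporter of the proximal brush border, Umod, which encodes uromodulin of the thick ascending limb, and Aqp2, the water channel of collecting duct principal cells, each mark a segment that lies outside the glomerulus.

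The 3 segment markers varied widely between libraries. Slc34a1, itself a carrier, lay between 6.70 and 241 FPKM in untreated libraries (median 29.4) and between 2.59 and 182 FPKM in RAAS-blocked libraries (median 50.2). Umod ranged over all libraries from 107 to 1168 FPKM and Aqp2 from 17.2 to 545 FPKM. None of the 3 differed between the groups beyond its spread (exact two-sided permutation p over 11440 splits of 0.819 for Slc34a1, 0.147 for Umod and 0.896 for Aqp2, adjusted p = 0.896, 0.440 and 0.896). Over the 16 libraries Slc34a1 and Umod rose together (Pearson r = 0.76, permutation p = 0.00078, adjusted over 3 pairs 0.00234; Spearman rho = 0.72, permutation p = 0.00226, adjusted 0.00678), with r = 0.66 without the 2 libraries farthest from the median Slc34a1 level. The r was 0.84 within untreated and 0.74 within RAAS-blocked libraries. Slc34a1 and Aqp2 did not pass (r = 0.29, permutation p = 0.276, adjusted 0.276; rho = 0.29, permutation p = 0.285, adjusted 0.285), with r = 0.72 without those 2 libraries and -0.0088 without the 2 farthest in Aqp2 (RAAS-blocked replicate 4 and untreated replicate 0), so its size rests on single libraries. Umod and Aqp2 did not pass either (r = 0.42, permutation p = 0.105, adjusted 0.158; rho = 0.48, permutation p = 0.0637, adjusted 0.0956), with r = 0.60 without the 2 libraries farthest in Umod and 0.31 without the 2 farthest in Aqp2. In bulk RNA, fewer cells of a type and less RNA per cell cannot be told apart.

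The libraries were alike in coarse measures, with pairwise correlations over genes of 0.886 to 0.984 and 17993 to 18613 symbols above 0, except for RAAS-blocked replicate 4 with 16919. Untreated replicate 7 and RAAS-blocked replicate 5 alone had a value for the microRNA gene Mir27a, of 672307 and 743781 FPKM. The table holds no counts, so depth is unknown. Podocyte markers, which define the glomerulus, summed to 2089 to 4820 FPKM in untreated and 1634 to 5073 FPKM in RAAS-blocked libraries over 9 of 10 genes, with the defining gene Podxl listed at 0 throughout. Endothelial markers summed to 1704 to 3257 and 1262 to 2691 FPKM, proximal tubule markers to 372.6 to 2673 and 309.1 to 1570 FPKM. The proximal list includes Cyp4b1, at 156 to 353 FPKM over all libraries, and the low ends of its sums rest largely on that gene. The summed FPKM of the 126 carriers ran from 2624 to 4405.

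The most abundant carriers came from different compartments. Slc12a3, the thiazide-sensitive sodium-chloride cotransporter of the distal convoluted tubule, had the highest median (259 FPKM), followed by the taurine transporter Slc6a6 (233 FPKM). Next were Slc44a2, a choline transporter-like protein (159 FPKM), the heme transporter Slc48a1 (141 FPKM), Slc12a1, the loop-diuretic-sensitive cotransporter of the thick ascending limb (108 FPKM), and Slc43a3 (107 FPKM), which is found in endothelium. These were the 6 carriers with a median above 100 FPKM, while 24 lay between 20 and 100 FPKM and 96 below 20 FPKM. Neighbours in this order overlapped widely: Slc12a3 ranged from 46.3 to 715 FPKM over the libraries and Slc6a6 from 108 to 429 FPKM.

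Carriers differed in how far they varied. The ratio of the highest to the lowest library was above 10 for 25 carriers and below 2 for 55. The greatest ratio, 151.8, was that of the glucose cotransporter Slc5a2, which fell below 1 FPKM in some libraries. Among carriers at 1 FPKM or more in every library, Slc34a1 had a ratio of 93.2, the acyl-CoA synthetase and fatty acid carrier Slc27a2 57.9, the basolateral sodium-bicarbonate cotransporter Slc4a4 27.5, and Slc22a18 24.9. The macrophage metal transporter Slc11a1 (ratio 25.1) was highest in untreated replicate 3, at 53.9 FPKM, against a median of 5.26 FPKM in that group. Over the 15 nucleotide sugar transporters and relatives of family 35, which serve the Golgi and endoplasmic reticulum, ratios lay between 1.26 (Slc35a1) and 2.53 (Slc35c2). The 14 zinc transporters of families 30 and 39 lay between 1.30 (Slc30a5) and 5.17 (Slc30a2).

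At the edge of the level rule, 7 carriers reached 5 FPKM in exactly 7 libraries. These were Slc13a3, Slc16a11, Slc19a1, Slc22a23, Slc2a2, Slc3a1 and Slc5a12, with a seventh-highest library at 5.03 to 5.74 FPKM. Just outside were Slc26a2, Slc35d2, Slc44a4, Slc45a3 and Slc46a3, which reached the level in 6 libraries and had a seventh-highest library at 3.68 to 4.9992 FPKM. In all, 80 carriers reached 5 FPKM in every library and 46 in 7 to 15. A carrier of the second kind was included through the libraries in which it was high and lay below 5 FPKM in the others. It therefore crossed that level, by a wide or a narrow margin. The amino acid exchanger light chain Slc7a6, for example, ran only from 4.63 to 6.68 FPKM. Counts of slopes over all carriers are therefore given for both kinds apart.

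**Figure D1:**
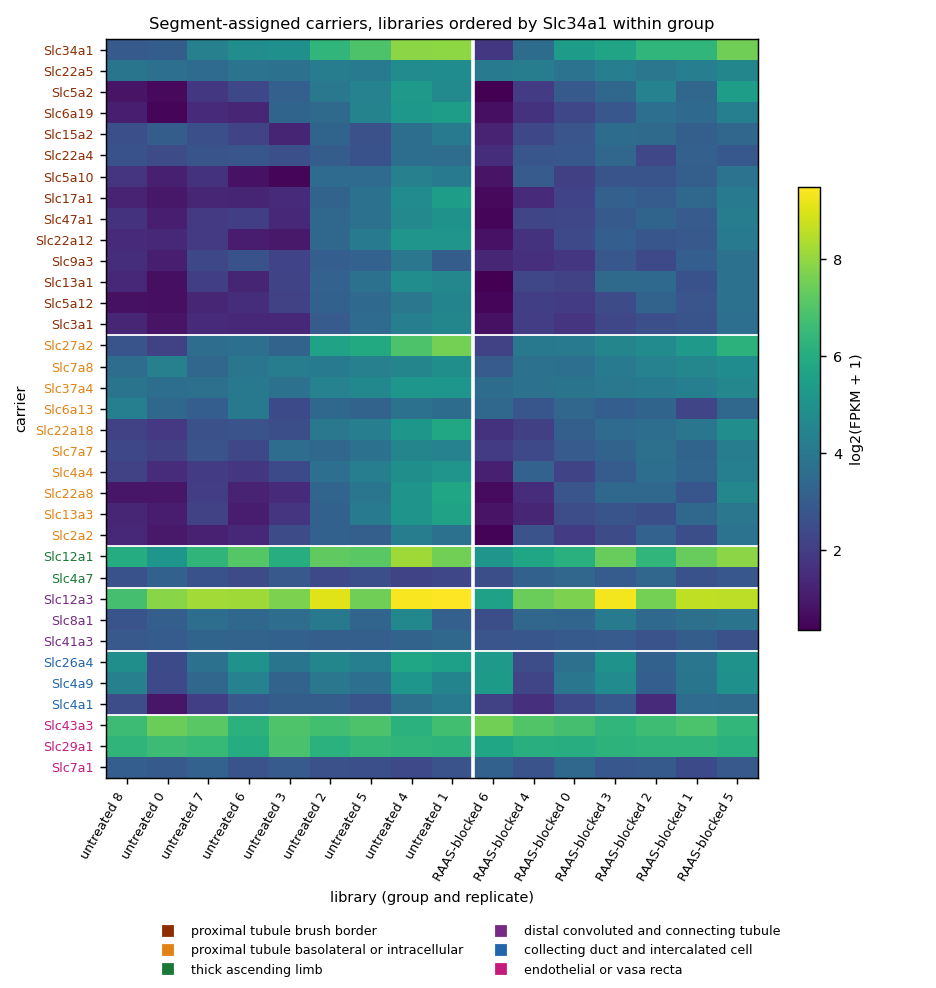
Level of 35 carriers assigned to a nephron segment or to endothelium (rows, coloured by assignment) in each library (columns, ordered by Slc34a1 within each group), as log2(FPKM + 1) from dark (low) to yellow (high). In both groups most proximal tubule carriers run from dark in the libraries with the lowest Slc34a1 to bright in those with the highest (Slc6a13 does not), while the endothelial carriers keep a narrow range.

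Proximal tubule carriers made up most of those that rose with Slc34a1, but most of these had been included through libraries in which they were high. Slopes were fitted with limma on log2(FPKM + 1) with a term for group, and p-values were adjusted over all genes tested. A slope of 1 means that the carrier changed as much as Slc34a1 on this scale. Near or below 1 FPKM the scale understates changes, so a slope under 1 need not mean a smaller factor. Of 125 carriers other than Slc34a1, 39 rose with it (31.2%) and 4 fell (3.2%), against 7.36% and 2.24% of all genes. Among the 80 carriers at 5 FPKM or more in every library, 11 rose (13.8%) and 4 fell (5.0%). Among the 45 others, 28 rose (62.2%) and 0 fell. Without untreated replicate 4 the number that rose was 30. Of the 11 that rose among carriers at 5 FPKM in every library, 6 had no segment assigned. Of the rest, 1 was a brush border carrier and 2 were basolateral or intracellular proximal carriers, beside Slc12a1 and Slc12a3.

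All 13 tested carriers of the proximal brush border rose with Slc34a1. Of these, 12 had been included through the libraries in which they were high, and the 1 at 5 FPKM in every library was the carnitine transporter Slc22a5. Slc5a2, the apical sodium-glucose cotransporter SGLT2, lay between 0.503 and 38 FPKM in untreated libraries (median 7.84) and between 0.277 and 42.0 FPKM in RAAS-blocked libraries (median 9.20). It was lowest in RAAS-blocked replicate 6, where Slc34a1 was also lowest, and its groups overlapped over nearly the whole range. Its slope of 0.86 ± 0.05 (SE) was the greatest of the carriers (limma adjusted p = 2.81e-08). Slc6a19, the apical neutral amino acid transporter, lay between 0.436 and 43.6 FPKM untreated (median 8.84) and between 0.674 and 18.7 FPKM RAAS-blocked (median 6.03), with a slope of 0.81 ± 0.07 (limma adjusted p = 2.32e-06). Slc17a1, an organic anion and urate transporter, lay between 0.932 and 42.0 FPKM untreated (median 1.70) and between 0.484 and 16.5 FPKM RAAS-blocked (median 7.15), with a slope of 0.75 ± 0.07. Both were highest in untreated replicate 1, the library with the highest Slc34a1, and neither group stood apart from the other.

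Other apical carriers rose less steeply. The urate exchanger Slc22a12 had a slope of 0.69 ± 0.09 (limma adjusted p = 7.05e-05), the lactate cotransporter Slc5a12 of 0.64 ± 0.05 (limma adjusted p = 4.88e-07) and the sodium-proton exchanger Slc9a3 of 0.41 ± 0.05 (limma adjusted p = 6.4e-05). Slc9a3 lay between 1.17 and 14.6 FPKM untreated (median 5.31) and between 1.55 and 12.5 FPKM RAAS-blocked (median 4.21). Slc22a5, which other cells also use, was the flattest of the 13 at 0.13 and ranged from 10.6 to 27 FPKM over all libraries.

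Of the 11 carriers of the basolateral side or the interior of proximal cells, 10 rose with Slc34a1. These were 2 of the 2 at 5 FPKM in every library and 8 of the 9 others. Slc22a8, the organic anion transporter OAT3, lay between 0.851 and 52.7 FPKM untreated (median 3.07) and between 0.542 and 22.7 FPKM RAAS-blocked (median 5.90). Its slope was 0.81 ± 0.07 (limma adjusted p = 3.05e-06). Slc13a3, the dicarboxylate transporter, had a slope of 0.72 ± 0.08. Slc27a2, at 3.31 to 191 FPKM untreated (median 12.0) and 3.33 to 73.7 FPKM RAAS-blocked (median 21.6), had a slope of 0.84 ± 0.07 (limma adjusted p = 1.87e-06). The facilitative glucose transporter Slc2a2, through which reabsorbed glucose leaves the cell, lay between 0.361 and 17.2 FPKM over all libraries and had a slope of 0.55 ± 0.07. Slc4a4, at 1.23 to 33.8 FPKM, had a slope of 0.59 ± 0.08. The exception was the GABA transporter Slc6a13, with a slope of -0.03 ± 0.07 (limma adjusted p = 0.85). It lay between 4.33 and 18.5 FPKM untreated and between 3.83 and 9.96 FPKM RAAS-blocked, and untreated replicate 8, with the lowest Slc34a1 of its group, held its highest value.

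Among the carriers most like Slc34a1 over the 16 libraries were Slc5a2, Slc22a18, Slc5a12 and Slc27a2. For Slc5a2 the Pearson r was 0.97 and the Spearman rho 0.96, each with a permutation p of 1e-05, the smallest that 100000 resamples can give (adjusted over all genes 0.000786 and 0.000692). The r was 0.98 within untreated and 0.97 within RAAS-blocked libraries and 0.96 without the 2 libraries farthest from the median (RAAS-blocked replicate 6 and untreated replicate 8). The other 3 had r of 0.95 to 0.96 and rho of 0.96 to 0.98 with the same permutation p = 1e-05, and r of 0.94 to 0.97 without those libraries. Within groups their r lay between 0.94 and 0.99.

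**Figure D2:**
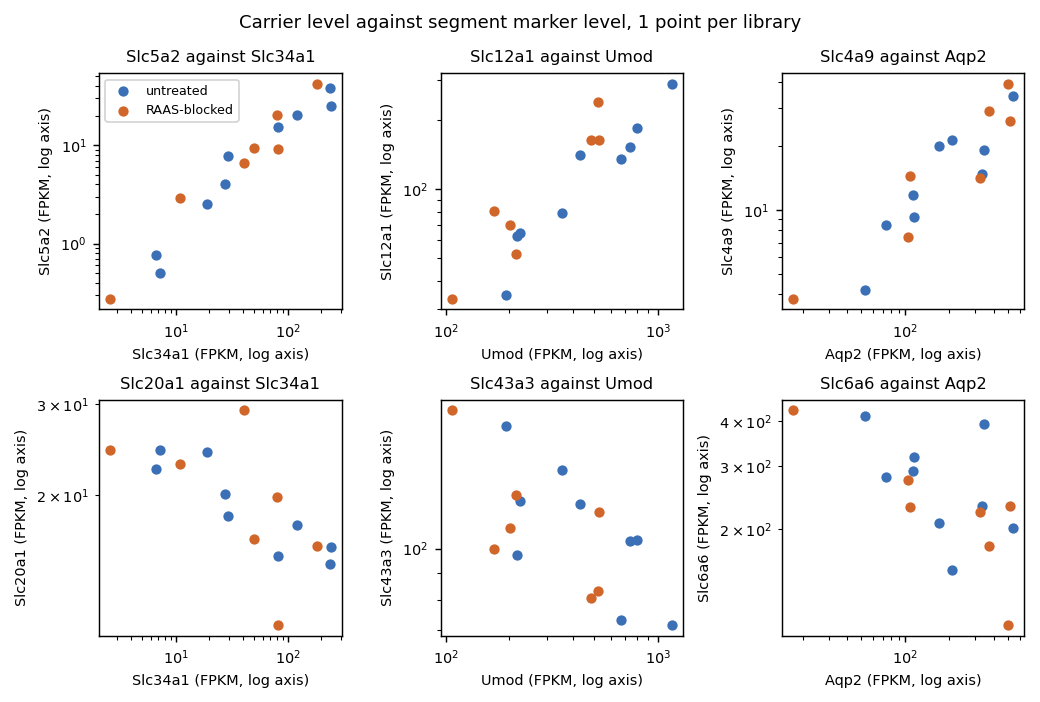
Level of a carrier against the level of a segment marker, both in FPKM on log axes, with 1 point per library coloured by group. In the upper panels Slc5a2, Slc12a1 and Slc4a9 rise with Slc34a1, Umod and Aqp2; in the lower panels Slc20a1, Slc43a3 and Slc6a6 fall, with more scatter, and untreated and RAAS-blocked points are mixed throughout.

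Proximal tubule markers that are not carriers rose with Slc34a1 in 14 of 16 cases and thick ascending limb markers in 8 of 8, while 0 of 9 podocyte, 0 of 9 endothelial and 0 of 5 mesangial markers passed in either direction. Scaffolds and partners of apical carriers were mixed: 3 of 9 rose. Tmem27 (collectrin), which carries Slc6a19 to the membrane, had a slope of 0.79 ± 0.04 (limma adjusted p = 1.96e-09) and the scaffold Pdzk1 of 0.64 ± 0.05 (limma adjusted p = 5.66e-07). Slc9a3r1, which also binds Slc34a1, had 0.10 ± 0.05 and did not pass (limma adjusted p = 0.212). Of 5 transcription factors of proximal identity, 3 rose, among them Hnf4a (0.66 ± 0.06) and Ppara (0.32 ± 0.04), while Maf did not pass (0.16 ± 0.06, limma adjusted p = 0.124). Hnf4a is also among the 16 proximal tubule markers counted above.

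Promoters of carriers that moved together were read from RefSeq (GRCm38.p6, 250 bases before to 50 after the first listed start), which had an entry for 99 of the 126 carriers. They were searched on both strands for 2 motifs: the HNF4 site CAAAGTCCA and the TATA box TATAAA. HNF4 proteins are transcription factors of the proximal tubule and liver. Shown are Slc34a1 (chr13:55399398-55399697, plus strand) with 1 match, Slc3a1, the heavy chain of the cystine transporter (chr17:85028097-85028396, plus strand), with 4, and Slc12a1 of the thick ascending limb, which also rose with Slc34a1 (chr2:125152350-125152649, plus strand), with 0. Matches are in capitals.
Slc34a1: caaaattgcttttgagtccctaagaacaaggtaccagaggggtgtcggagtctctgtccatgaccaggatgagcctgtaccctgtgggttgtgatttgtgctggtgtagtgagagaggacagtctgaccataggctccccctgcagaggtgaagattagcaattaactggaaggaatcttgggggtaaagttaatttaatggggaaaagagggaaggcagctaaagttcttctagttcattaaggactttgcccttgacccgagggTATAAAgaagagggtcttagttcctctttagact
Slc3a1: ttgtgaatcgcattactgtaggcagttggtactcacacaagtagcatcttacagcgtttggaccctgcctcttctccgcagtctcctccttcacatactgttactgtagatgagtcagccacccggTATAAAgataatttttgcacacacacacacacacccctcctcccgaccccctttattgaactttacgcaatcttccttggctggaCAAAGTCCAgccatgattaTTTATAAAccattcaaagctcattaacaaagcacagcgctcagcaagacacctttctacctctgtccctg
Slc12a1: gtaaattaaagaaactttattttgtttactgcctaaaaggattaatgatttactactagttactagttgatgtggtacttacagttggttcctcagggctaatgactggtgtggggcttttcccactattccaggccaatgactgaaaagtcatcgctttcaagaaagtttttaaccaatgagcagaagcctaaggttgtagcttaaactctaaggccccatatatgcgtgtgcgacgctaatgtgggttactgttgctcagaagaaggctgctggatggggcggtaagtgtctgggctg
In Slc34a1 the capitals are a TATA box. In Slc3a1 they are 1 HNF4 site and 3 TATA boxes, of which a pair on opposite strands overlaps. No match of 1 motif overlapped a match of another.

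The HNF4 site was found in 1 of the 29 promoters of Slc34a1 and the carriers that rose with it (3.45%), in 0 of the 70 other carriers and in 0.477% of the promoters of 27025 genes. The TATA box was found in 3 of 29 (10.3%), in 8 of 70 (11.4%) and in 14.2% of all. A match is a run of letters and not a measured binding site, and the starts used in these kidneys were not measured.

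The 4 carriers that fell with rising Slc34a1 had shallow slopes. The phosphate carrier Slc20a1, which supplies many cell types, lay between 14.8 and 24.5 FPKM untreated (median 18.2) and between 11.3 and 29.2 FPKM RAAS-blocked (median 19.9), with a slope of -0.13 ± 0.03 (limma adjusted p = 0.0271). The zinc importers Slc39a1 (-0.09 ± 0.02, limma adjusted p = 0.0316) and Slc39a6 (-0.08 ± 0.02, limma adjusted p = 0.0281) and the Golgi sulfate-donor transporter Slc35b3 (-0.07 ± 0.02, limma adjusted p = 0.0407) were the others. These calls rested on few libraries. With 1 library left out, Slc20a1 and Slc39a6 passed in 13 of 16 fits, Slc39a1 in 10 and Slc35b3 in 7, and the number that fell was 0 without untreated replicate 4 or RAAS-blocked replicate 5. It was 1 without untreated replicate 0, 2 without RAAS-blocked replicate 1, and 8 without RAAS-blocked replicate 6 and untreated replicate 8 together. Slc39a1 was at 124 FPKM in RAAS-blocked replicate 6, against a median of 75.3 FPKM in that group, and its slope was -0.05 without that library.

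With Umod, 45 of 126 carriers rose (35.7%) and 11 fell (8.73%), against 12.3% and 5.11% of all genes. Of the 80 at 5 FPKM in every library, 15 rose (18.8%) and 10 fell (12.5%), and of the 46 others 30 rose (65.2%) and 1 fell (2.17%). The steepest slopes were those of proximal tubule carriers, whose marker Slc34a1 had itself a slope of 1.64 ± 0.32 on Umod (limma adjusted p = 0.00222). Slc27a2 had 1.5 ± 0.26, Slc5a2 1.33 ± 0.31, Slc22a8 1.32 ± 0.30, Slc17a1 1.29 ± 0.26, Slc13a3 1.20 ± 0.28 and Slc22a12 1.19 ± 0.27. All 14 brush border and 9 of 11 basolateral or intracellular carriers rose. Since Slc34a1 and Umod rose together, single slopes do not tell these markers apart.

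The carriers most like Umod were others. Slc2a4, the insulin-responsive glucose transporter, had the highest correlation (r = 0.94 and rho = 0.94, each with a permutation p of 1e-05, adjusted 0.000654 and 0.00132). Its r was 0.95 within untreated, 0.91 within RAAS-blocked and 0.90 without RAAS-blocked replicate 6 and untreated replicate 4. It lay between 6.93 and 21.1 FPKM untreated (median 10.2) and between 4.48 and 14.2 FPKM RAAS-blocked (median 8.80), with a slope of 0.58 ± 0.06 (limma adjusted p = 1.91e-05). Next came the monocarboxylate transporter Slc16a7, Slc12a1, the creatine transporter Slc6a8 and Slc12a3, with r of 0.86 to 0.91 (permutation p = 1e-05 each) and rho of 0.81 to 0.88 (permutation p from 1e-05 to 0.0003). Their r was 0.78 to 0.86 without those libraries and 0.84 to 0.96 within groups.

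Both diuretic-sensitive cotransporters rose with Umod. Of the carriers assigned to their segments, 1 of 2 of the thick ascending limb rose and 2 of 3 of the distal convoluted and connecting tubule. The other carrier assigned to the thick ascending limb, Slc4a7, did not pass on Umod. Slc12a1 lay between 34.7 and 288 FPKM untreated (median 135) and between 33.4 and 240 FPKM RAAS-blocked (median 80.8), and its slope was 0.99 ± 0.09 (limma adjusted p = 3.47e-06). Slc12a3 lay between 109 and 715 FPKM untreated (median 289) and between 46.3 and 635 FPKM RAAS-blocked (median 206), and its slope was 0.97 ± 0.15 (limma adjusted p = 0.00032). Each was lowest in RAAS-blocked replicate 6, which also had the lowest Umod, and the groups overlapped. Of 17 regulators and partners of sodium chloride transport, 10 rose with Umod and 0 fell. They included the kinase Wnk4 (0.73 ± 0.06), which acts on Slc12a3 through Stk39 (0.24 ± 0.05), and the sodium pump regulator Fxyd2 (0.84 ± 0.07). The kinase Oxsr1 (0.05 ± 0.04) and the ubiquitin ligase scaffold Cul3 (-0.01 ± 0.04) did not pass.

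Carriers that fell with Umod included some of endothelium and immune cells. Slc15a3, a lysosomal peptide and histidine transporter of macrophages, lay between 5.27 and 43 FPKM untreated (median 7.14) and between 6.67 and 30.9 FPKM RAAS-blocked (median 14.8). Its slope was -0.60 ± 0.18 (limma adjusted p = 0.0345), its highest value stood in untreated replicate 3, and it passed in 9 of 16 fits with 1 library left out. Slc43a3 lay between 71.6 and 171 FPKM untreated (median 104) and between 80.5 and 183 FPKM RAAS-blocked (median 109), with a slope of -0.31 ± 0.08 (limma adjusted p = 0.0129). The cationic amino acid transporter Slc7a1, which carries arginine, had -0.22 ± 0.06, Slc20a1 -0.29 ± 0.06 and the ascorbate transporter Slc23a2 -0.19 ± 0.04. Among markers, 0 of 6 of macrophages, 0 of 9 of podocytes and 1 of 9 of endothelium fell with Umod. Macrophage markers summed to 117 to 2035 FPKM untreated and 244 to 948 FPKM RAAS-blocked, and their part in the slope of Slc15a3 was not tested. Without untreated replicate 4, 31 carriers rose and 2 fell. The number that fell was 7 without untreated replicate 0, untreated replicate 1 or RAAS-blocked replicate 5.

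With Aqp2, 16 of 126 carriers rose (12.7%) and 8 fell (6.35%), against 11.9% and 8.6% of all genes, so the share that rose lay near the background and the share that fell below it. Of the 80 at 5 FPKM in every library, 9 rose (11.2%) and 7 fell (8.75%). Of the 46 others, 7 rose (15.2%) and 1 fell (2.17%). The counts over all 126 carriers moved with the setting: 32 rose with array weights, and 7 rose and 1 fell without the 2 libraries farthest in Aqp2. The steepest rises belonged to chloride-bicarbonate exchangers of intercalated cells. Slc26a4 (pendrin) lay between 4.28 and 52.8 FPKM untreated (median 22.5) and between 4.74 and 37 FPKM RAAS-blocked (median 14.2), with a slope of 0.63 ± 0.09 (limma adjusted p = 0.000951). Slc4a9 lay between 4.18 and 34.4 FPKM untreated (median 14.7) and between 3.82 and 39.1 FPKM RAAS-blocked (median 14.4), with a slope of 0.61 ± 0.07 (limma adjusted p = 0.000249). Both were low in RAAS-blocked replicate 4 and untreated replicate 0, the libraries with the lowest Aqp2, and the groups overlapped. Slc4a1, the anion exchanger of type A intercalated cells and red cells, lay between 0.895 and 16.6 FPKM untreated (median 6.04) and between 1.78 and 10.6 FPKM RAAS-blocked (median 4.19), with a slope of 0.39 ± 0.13 (limma adjusted p = 0.0406). It passed in 5 of 16 fits with 1 library left out, and it also rose with Slc34a1 and Umod. Of erythroid markers 0 of 3 passed on Aqp2 (median slope -0.53), while 5 of 5 intercalated cell and 7 of 7 principal cell markers rose.

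Other carriers that rose with Aqp2 were the choline transporter-like Slc44a3 (0.40 ± 0.06), the monocarboxylate carrier Slc16a5 (0.34 ± 0.09), Slc2a4 (0.25 ± 0.08), the ubiquitous glucose transporter Slc2a1 (0.23 ± 0.05) and Slc45a4 (0.20 ± 0.06). Slc2a1 lay between 9.35 and 22.5 FPKM untreated (median 15.4) and between 9.45 and 21.5 FPKM RAAS-blocked (median 16.4), and it passed with Aqp2 (limma adjusted p = 0.00878) and not with Slc34a1 (0.07 ± 0.06, limma adjusted p = 0.468). Slc2a4 passed in 5 of 16 fits that left out 1 library, and Slc2a1 in 16. Most like Aqp2 was Slc4a9, with r = 0.91 (permutation p = 1e-05, adjusted 0.00162) and rho = 0.91 (permutation p = 2e-05, adjusted 0.00292). Its r was 0.90 within untreated, 0.92 within RAAS-blocked and 0.85 without RAAS-blocked replicate 4 and untreated replicate 0. The anion exchanger Slc4a2, Slc44a3, Slc26a4 and the fatty acid carrier Slc27a4 followed, with r of 0.81 to 0.86 (permutation p from 3e-05 to 0.00019), rho of 0.74 to 0.86 (permutation p from 5e-05 to 0.00137) and r of 0.68 to 0.79 without those libraries. Within groups their r lay between 0.75 and 0.92.

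Among the 8 carriers that fell with Aqp2, Slc12a2, the basolateral sodium-potassium-chloride cotransporter of many cells, had a slope of -0.28 ± 0.08 (limma adjusted p = 0.0198). The taurine transporter Slc6a6, at 154 to 414 FPKM untreated (median 280) and 108 to 429 FPKM RAAS-blocked (median 230), had -0.25 ± 0.07 (limma adjusted p = 0.0246). The bicarbonate cotransporter Slc4a7 had -0.16 ± 0.04 and the zinc exporter Slc30a4 -0.11 ± 0.03. Without untreated replicate 0 the number that fell with Aqp2 was 4, and without untreated replicate 4 it was 5. Endothelial markers fell with Aqp2 in 2 of 9 cases, and their part in these slopes was not tested.

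With all 3 markers in 1 model, fewer carriers passed on Slc34a1. At fixed Umod and Aqp2, 15 of 125 carriers rose with Slc34a1 (12%) and 0 fell, against 1.03% and 0.0527% of all genes. Of these 15, 7 were brush border carriers (of 13) and 7 basolateral or intracellular proximal carriers (of 11), and the last was Slc12a1. Slc22a5 did not pass (joint slope 0.07, limma adjusted p = 0.79). Only 1 of the 80 carriers at 5 FPKM in every library was among them (1.25%), and 14 of the 45 others (31.1%). Slc5a2 had a joint slope of 0.94 (limma adjusted p = 8.56e-05), Slc6a19 of 0.97 (limma adjusted p = 0.000705) and Slc7a7, the light chain of the basolateral dibasic amino acid exchanger, of 0.53 (limma adjusted p = 0.000382). At fixed Slc34a1 and Aqp2, 4 carriers rose with Umod (3.2%) and 0 fell, against 0.519% and 0% of all genes. They were Slc12a1 (0.57, limma adjusted p = 0.0215), Slc16a7 (0.81, limma adjusted p = 0.0428), Slc16a5 (0.64, limma adjusted p = 0.0226) and the inositol transporter Slc5a3 (0.55, limma adjusted p = 0.0381). Of these 4, 2 were among the 80 carriers at 5 FPKM in every library (2.5%) and 2 among the 45 others (4.44%). No proximal brush border carrier passed on Umod in this model (0 of 13).

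At fixed Slc34a1 and Umod, 12 carriers rose with Aqp2 (9.6%) and 1 fell (0.8%), against 9.34% and 6.03% of all genes. Of the 80 at 5 FPKM in every library, 7 rose (8.75%) and 1 fell (1.25%). Of the 45 others, 5 rose (11.1%) and 0 fell. Slc4a9 (0.59, limma adjusted p = 0.00273) and Slc26a4 (0.58, limma adjusted p = 0.00623) kept slopes near their single ones. The joint counts moved with single libraries: the 15 became 8 without untreated replicate 5 and 9 without untreated replicate 6 or RAAS-blocked replicate 2. The 4 on Umod became 0 without RAAS-blocked replicate 2 or replicate 4, 1 without untreated replicate 5, and 2 without untreated replicates 2, 3 or 4 or RAAS-blocked replicates 1, 5 or 6. The 12 on Aqp2 became 3 without RAAS-blocked replicate 6 and 6 without RAAS-blocked replicate 4. The 1 that fell became 6 without untreated replicate 6, 5 without untreated replicate 3, 4 without untreated replicate 8, 2 without untreated replicate 1 or RAAS-blocked replicates 1 or 3, and 0 without RAAS-blocked replicates 4 or 6. The 3 markers together held a median of 58.1% of the variance of the carriers within groups, against 42.15% over all genes. The median was 52.5% for the 80 carriers at 5 FPKM in every library and 80.4% for the 45 others, which were included through their high libraries. This share was 97.2% for Slc12a1, 95.9% for Slc5a2 and 2.2% for the amino acid exchanger light chain Slc7a6.

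**Figure D3:**
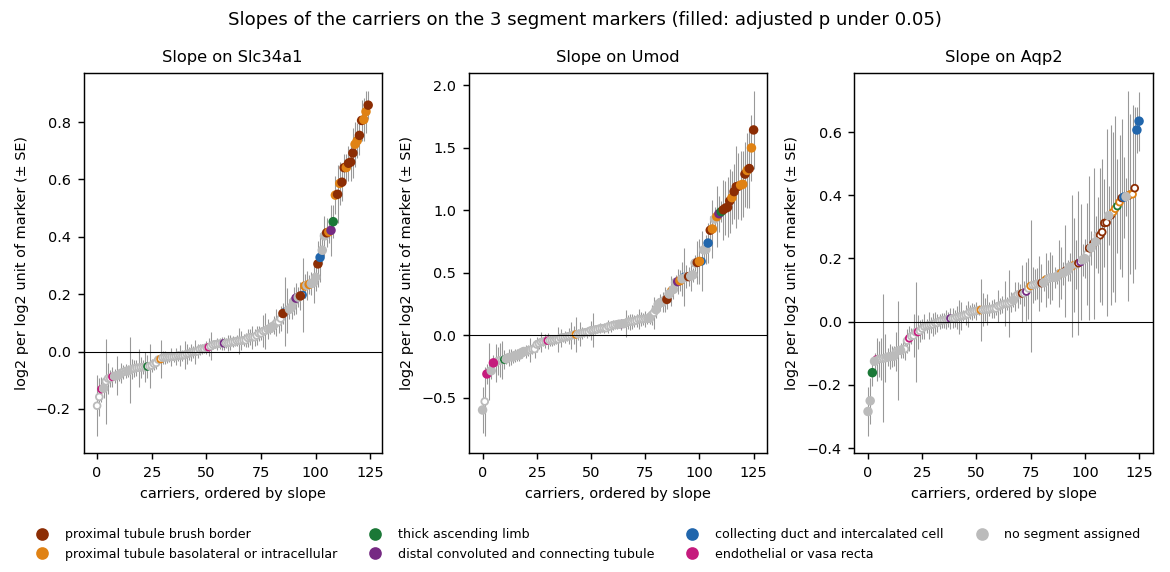
Slope of each carrier on Slc34a1, Umod and Aqp2 (log2 per log2 unit of marker, ± SE), ordered from the lowest to the highest and coloured by nephron segment, with filled points past an adjusted p of 0.05. Proximal tubule carriers fill the upper end for Slc34a1 and Umod, and the pair of intercalated cell exchangers Slc26a4 and Slc4a9 stands highest for Aqp2.

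By family, and against the shares of all genes given above for each marker, carriers of organic ions and drugs (families 22 and 47) rose with Slc34a1 in 8 of 9 cases. Sodium-coupled carriers of glucose, inositol and vitamins (family 5) rose in 4 of 4. All carriers of these families except Slc22a5 had been included through the libraries in which they were high and lay below 5 FPKM in others. Bicarbonate carriers (family 4) rose in 2 of 6 cases with Slc34a1, 2 with Umod and 3 with Aqp2, and 1 fell with Aqp2. The 2 that rose with Slc34a1, Slc4a1 and Slc4a4, had also been included through the libraries in which they were high. Cation-chloride cotransporters (family 12) rose in 3 of 8 cases with Slc34a1, and on Aqp2 1 rose and 2 fell. Nucleotide sugar transporters (family 35) had 1 rise and 1 fall in 15 with Slc34a1, against 7.36% and 2.24% of all genes. Zinc transporters had 0 rises and 2 falls in 14, a share of falls above that of all genes. Those falls, of Slc39a1 and Slc39a6, rested on few libraries. In all, 54 carriers passed on none of the 3 markers, among them the amino acid transporter heavy chain Slc3a2, the heme transporter Slc48a1 and the nucleoside transporter Slc29a1.

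Between RAAS-blocked and untreated libraries no carrier passed the test. Of 126 carriers, 0 were called higher and 0 lower, against 0.00753% of all genes in each direction. Means were higher in 38 carriers and lower in 88, while over all genes 44.74% were higher and 55.26% lower, and the median log2 difference was -0.07 for the carriers and -0.02 for all genes. At an unadjusted limma p under 0.05, 1 carrier was higher and 8 were lower, against 360 and 454 of 13286 genes. An exact Wilcoxon test also called 0 carriers. In 0 of 126 carriers were the groups free of overlap, which held for 0.0602% of all genes.

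The carriers with the lowest p had lower values after RAAS blockade. Slc41a3, a magnesium carrier, lay between 6.4 and 9.57 FPKM untreated (median 8.03) and between 5.10 and 7.35 FPKM RAAS-blocked (median 6.01). The groups overlapped by a few libraries, and the log2 difference was -0.34 ± 0.08 (SE, limma adjusted p = 0.421). Slc12a5, a potassium-chloride cotransporter best known from neurons, lay between 3.39 and 9.93 FPKM untreated (median 6.79) and between 2.64 and 5.49 FPKM RAAS-blocked (median 3.96), with -0.54 ± 0.17 (limma adjusted p = 0.639). The vesicular zinc transporter Slc30a2 lay between 7.28 and 37.6 FPKM untreated (median 20.7) and between 8.24 and 13.1 FPKM RAAS-blocked (median 11.9), with -0.73 ± 0.24 (limma adjusted p = 0.655). In 8 of 9 untreated libraries Slc30a2 exceeded every RAAS-blocked library, and untreated replicate 3 lay below them all.

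Slc29a1, the equilibrative nucleoside transporter that clears adenosine, lay between 63.8 and 115 FPKM untreated (median 78.7) and between 53.5 and 78.3 FPKM RAAS-blocked (median 69.8), with -0.26 ± 0.11 (limma adjusted p = 0.769). It is 1 of 3 carriers assigned to endothelium, of which 2 had higher means and 1 lower (median log2 difference 0.03). The 9 endothelial markers that are not carriers all had lower means (median log2 difference -0.31, 0 past the test). Their summed levels are given above, and their part in the difference of Slc29a1 was not tested. Of the other marker lists, 5 of 5 mesangial (median 0.41), 4 of 4 smooth muscle (0.54) and 6 of 6 macrophage markers (0.50) had higher means and 3 of 3 erythroid markers lower ones (-1.31), with 0 past the test in each. The magnesium transporter Slc41a1 had -0.14 ± 0.05 (limma adjusted p = 0.73) and the amino acid transporter Slc36a4 -0.23 ± 0.09 (limma adjusted p = 0.745).

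Among carriers with higher means, Slc4a7 had the lowest p. It lay between 3.71 and 8.06 FPKM untreated (median 4.99) and between 4.77 and 9.27 FPKM RAAS-blocked (median 7.13), with 0.40 ± 0.15 (limma adjusted p = 0.745). Slc12a2 lay between 21.9 and 92.2 FPKM untreated (median 37.7) and between 21.1 and 76.4 FPKM RAAS-blocked (median 62.2), with 0.32 ± 0.28 (limma adjusted p = 0.914). The highest and the lowest RAAS-blocked values of Slc12a2 came from replicates 4 and 6, the libraries with the lowest and the second highest Aqp2 of that group. The log2 differences of the lysosomal histidine transporter Slc15a4 (0.14 ± 0.09), the potassium-chloride cotransporter Slc12a4 (0.16 ± 0.11), the heavy chain Slc3a2 (0.10 ± 0.08) and the anion exchanger Slc4a3 (0.18 ± 0.15) were smaller than 2 SE.

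**Figure D4:**
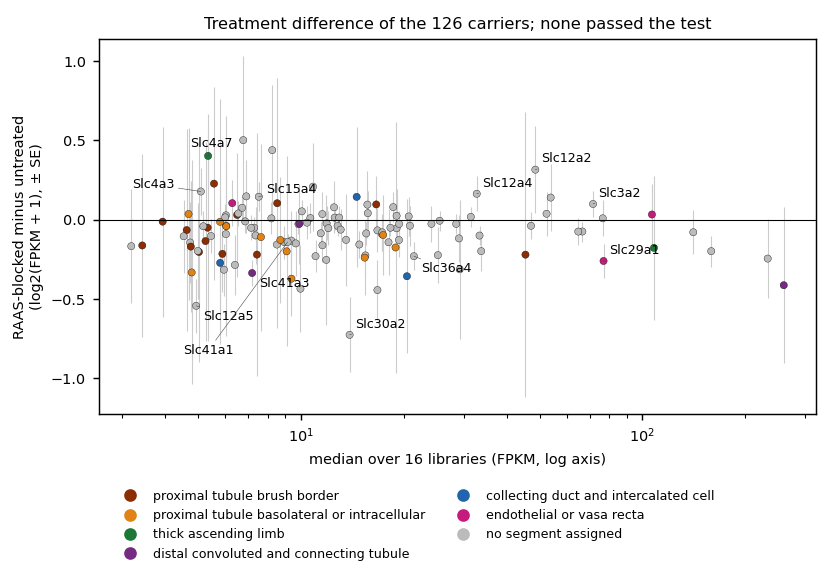
Difference between RAAS-blocked and untreated libraries (log2(FPKM + 1), ± SE) of each of the 126 carriers against its median level (FPKM, log axis), coloured by nephron segment, with names for the 6 lowest p in each direction. Many proximal tubule carriers have wide error bars, and no carrier passed an adjusted p of 0.05.

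**Figure D5:**
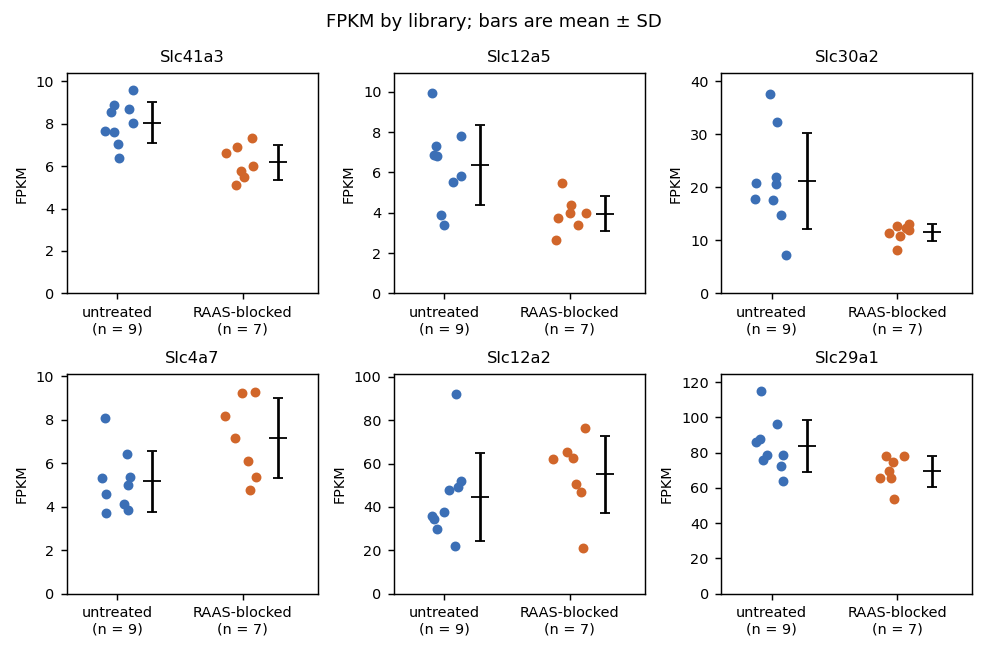
FPKM of 6 carriers in each library, with the mean ± SD of each group beside the points (9 untreated, 7 RAAS-blocked). Every pair of groups overlaps, including Slc41a3 (untreated from 6.4, RAAS-blocked up to 7.35 FPKM).

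Proximal tubule carriers spread widely within both groups. Means were lower in 10 of 14 brush border carriers (median log2 difference -0.10) and in 10 of 11 basolateral or intracellular carriers (-0.13), with 0 past the test and 0 at an unadjusted p under 0.05. Brush border carriers summed to 39.98 to 561.7 FPKM untreated and 28.52 to 393.3 FPKM RAAS-blocked. Slc5a2 had means of 12.7 ± 13 FPKM (SD, n = 9) untreated and 13 ± 14.3 FPKM (SD, n = 7) RAAS-blocked. With the 3 marker levels held fixed, 0 carriers passed in either direction (0.00753% of all genes higher and 0% lower). In that model 4 were higher and 13 lower at an unadjusted limma p under 0.05, against 693 and 905 of 13283 genes. Slc12a5 then had a log2 difference of -0.67 (limma adjusted p = 0.278) and Slc41a3 of -0.24 (limma adjusted p = 0.36).

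The slopes on Slc34a1 were also compared between the groups. In the test of treatment by Slc34a1 interaction, 0 of 125 carriers passed, against 0% of all genes with a steeper and 0.00753% with a shallower slope after RAAS blockade. At an unadjusted limma p under 0.05 there were 6 and 11 carriers, against 926 and 848 of 13285 genes. For Slc5a2 the slope was 0.88 in untreated libraries and differed by -0.06 ± 0.10 in RAAS-blocked ones (limma adjusted p = 0.858). For Slc6a19 the difference was -0.31 ± 0.13 (limma adjusted p = 0.296) and for Slc12a1 0.02 ± 0.12 (limma adjusted p = 0.957). Without RAAS-blocked replicate 4, 2 carriers passed with a steeper slope after RAAS blockade, and without untreated replicate 5, 1 did.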

How the data were processed

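RNA of magnetically isolated mouse glomeruli was sequenced after poly(A) selection with a TruSeq mRNA kit, per the labels' protocols. The authors deposited FPKM per gene symbol in 16 libraries (9 untreated, 7 RAAS-blocked). Tools listed in the submitters' processing notes, without their roles or order, are Cuffdiff 2.2.1, Cufflinks, TopHat2 2.0.8, FastQC and CASAVA 1.8.2. Genome build, annotation and strandedness were not given in the sources used here. Genes that overlap or lie antisense to each other can therefore share reads. Without counts, depth is unknown and no counting interval is given.

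Values were taken as log2(FPKM + 1), for 13286 genes at 1 FPKM or more in at least 7 libraries, and this scale understates changes of low genes. Group differences, slopes on centred log2 marker levels (with a group term), the model of all 3 markers and the interaction were fitted with limma 3.58.1 (R 4.3.3, variance trend, robust), with Benjamini-Hochberg adjustment over all genes and a threshold of 0.05. Correlations used 100000 resamples (SciPy 1.17.1) and marker levels an exact permutation test. The fits were tested on simulated data. Alternatives were other pseudocounts, filters, scalings and weights, an exact Wilcoxon test, a replicate block and fits without single libraries.

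The members and lists were chosen with earlier results of these data known. Named carriers were those with the lowest p or greatest slopes, levels, ratios (among those at 1 FPKM or more in every library) and correlations, and a fixed set of segment carriers. Slc22a5, Slc30a5, Slc35a1, Slc35c2, Slc5a3, Slc6a13, Slc7a6 and Slc7a7 were named after their values were seen. Family 25 carriers, Slc40a1 and Slc11a2 were left out by the rule. Some genes that the naming rule covers are not reported here.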

Additional observations from a re-analysis of the deposited data

Results flagged for a closer look

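In 112 groups of libraries (56 carriers and markers in both groups), 5 held 1 library far from the others of its group, where chance gives about 1 in 20 groups. RAAS-blocked replicate 6 stood apart for 3 carriers: it was lowest for the cotransporter Slc12a2 at 21.12 FPKM, highest for the zinc importer Slc39a1 at 123.6 FPKM and highest for the heme transporter Slc48a1 at 216.7 FPKM. The vesicular zinc transporter Slc30a2 was lowest in RAAS-blocked replicate 4 at 8.242 FPKM. The lysosomal transporter Slc15a4 stood apart in untreated replicate 3 at 9.972 FPKM. Replicate 6 of the RAAS-blocked group also had the lowest Slc34a1 and Umod of all libraries.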

How the results depend on the processing

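Calls between the groups numbered 0 in every setting tried, the replicate block included. Whether the replicate numbers pair the libraries was not settled. Deviations from the group means correlated between -0.283 and 0.426 for same-numbered libraries, and libraries of different numbers were not compared. With the replicate block Slc41a3 had a log2 difference of -0.36. In RAAS-blocked libraries alone, 15 carriers rose and 1 fell with Slc34a1, 4 and 0 with Umod, and 3 and 0 with Aqp2; in untreated libraries alone, 5 fell with Umod, and 5 rose and 0 fell with Aqp2. These fits hold fewer libraries. Without the 2 libraries farthest in marker level, 8 fell with Slc34a1, 6 fell with Umod, and 7 rose and 1 fell with Aqp2. Array weights gave 18 falls with Umod, 32 rises with Aqp2, and 3 rises and 0 falls with Aqp2 in the joint model. Upper-quartile scaling gave 2 falls with Slc34a1 and 2 with Aqp2 in the joint model, where quantile normalization gave 5. With no filter the joint model had 2 rises with Umod. Without both libraries that list Mir27a, an alternative chosen after seeing the data, as were all those of the joint model and interaction, 0 fell with Slc34a1, 5 with Umod and 5 with Aqp2, and the joint rises were 9, 1 and 7. For all these shifts the cause was not tested.

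With 1 library left out, falls ranged from 0 to 6 with Slc34a1, 2 to 13 with Umod and 4 to 11 with Aqp2. Joint rises ranged from 8 to 20, 0 to 5 and 3 to 14, joint falls with Aqp2 from 0 to 6, and interaction calls from 0 to 2. The slopes that changed sign did not pass the test over all 16 libraries, though those of Slc12a2 on Slc34a1 and on Umod each passed in 1 fit with a library left out. On Slc34a1, Slc2a1 had -0.025 and Slc12a2 0.16 in RAAS-blocked libraries alone, and Slc12a2 ranged from -0.20 to 0.011 with 1 library left out. On Umod, Slc12a2 had 0.25 in RAAS-blocked libraries alone. On Aqp2, Slc5a2 had -0.020 without the 2 farthest libraries, Slc2a2 -0.14 and Slc4a4 -0.094 in RAAS-blocked libraries alone, and Slc2a2 ranged from -0.0078 to 0.27. A level of 10 FPKM left 78 carriers. FPKM without counts gives no depth, so low levels carry an unknown counting error.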
